A study of Mus musculus with 24 samples.

Results

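The genes that encode the subunits of voltage-gated sodium and calcium channels were followed in the brain hemispheres of mice after a stroke model. Members were taken by gene symbol from the annotation of the array: sodium channel genes written Scn, a number and a or b, and calcium channel genes whose symbols start with Cacna1, Cacna2d, Cacnb or Cacng. The rule used no measured value and found 35 of the 19505 genes on the array, each represented by 1 probe set.

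All mice were C57Bl/6j males, 8 to 10 weeks old. The MCAO group of 8 had the middle cerebral artery closed for 90 minutes by the intraluminal model, and the mice were killed 30 minutes after the occlusion ended, 2 hours after its onset. The other 4 mice had sham surgery. All were perfused with cold saline, and the ipsilateral hemisphere (on the operated side) and the contralateral hemisphere of each mouse were frozen and measured on 1 array each, which gives 24 arrays. A hemisphere can hold both ischaemic and spared tissue and many cell types, so fewer cells of a type and less RNA per cell cannot be told apart in these values.

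Voltage-gated sodium channels open on depolarisation and carry the rising phase of the action potential. Their α subunits (Scn1a to Scn11a) form the pore, and their β subunits (Scn2b, Scn3b, Scn4b) set gating and attach the channel to the cell surface and to neighbouring proteins. Voltage-gated calcium channels turn depolarisation into calcium entry, which drives transmitter release, dendritic signalling and transcription. Their pore is an α1 subunit (Cacna1 genes), and α2δ (Cacna2d genes) and β (Cacnb genes) subunits carry the pore to the membrane and tune its opening. The γ subunits (Cacng genes) include one of the skeletal muscle channel, and several neuronal ones that act mainly as auxiliary proteins of AMPA-type glutamate receptors. In an ischaemic brain, loss of energy supply depolarises neurons, and sodium and calcium entry through these channels belongs to the classical account of excitotoxic injury.

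The deposited values were log2 probe-set signals. Both arrays of MCAO mouse 3 and of sham mouse 1 stood apart: their correlation with the remaining 20 arrays had a median of 0.33 to 0.55, against 0.98 to 0.99 among those 20, their positive control probe sets averaged 4.70 to 5.01 against 6.51 to 6.75, and 0 to 3 of the 35 channel genes passed the background of the array against 25 to 27. Side differences of more than 1 on the log2 scale, in either direction, were seen for 16 channel genes in MCAO mouse 3 and for 13 in sham mouse 1, and for 0 or 1 in every other mouse. The values below are therefore from 20 arrays, of 7 MCAO and 3 sham mice, and values on all 24 arrays are given for counts, for members with the smallest p and for members described in detail whose direction they turn. All 9 pan-neuronal markers were above background on all 20 arrays, and the 4 choroid plexus markers and 6 of 7 skeletal muscle markers (all but Ckm) on none. Each mouse is a separate animal. Where the sides of a mouse are compared, the p-values and SE rest on the spread of the side difference over MCAO and sham mice together. Where mice are compared with other mice, they rest on the spread between mice.

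Background was set array by array at the 95th percentile of that array's negative controls, which lay between 5.17 and 5.74, and a signal over it is called above background. By this measure 25 of the 35 genes were above background on all 20 arrays, 8 on none, and 2 on some. The sodium α subunits above background on all arrays were Scn1a, Scn2a, Scn3a and Scn8a, the subunits known from central neurons. Scn7a, Scn10a and Scn11a, known mainly from glia and sensory neurons outside the brain, were above background on none. All 3 sodium β subunits passed on every array. Of the 10 calcium α1 genes, 8 passed on every array. These were the L-type genes Cacna1c and Cacna1d, the P/Q-, N- and R-type genes Cacna1a, Cacna1b and Cacna1e, and the T-type genes Cacna1g, Cacna1h and Cacna1i. The other α1 genes, Cacna1f of the retina and Cacna1s of skeletal muscle, passed on none. Cacna2d1 and Cacna2d3 passed on all arrays, Cacna2d2 on 17 of 20 and Cacna2d4 on none. All 3 β genes (Cacnb1, Cacnb2 and Cacnb4) passed on all, as did the γ genes Cacng2, Cacng3, Cacng4, Cacng7 and Cacng8. Cacng5 passed on 1 array, and Cacng1 (the muscle γ subunit) and Cacng6 on none.

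**Figure D1:**
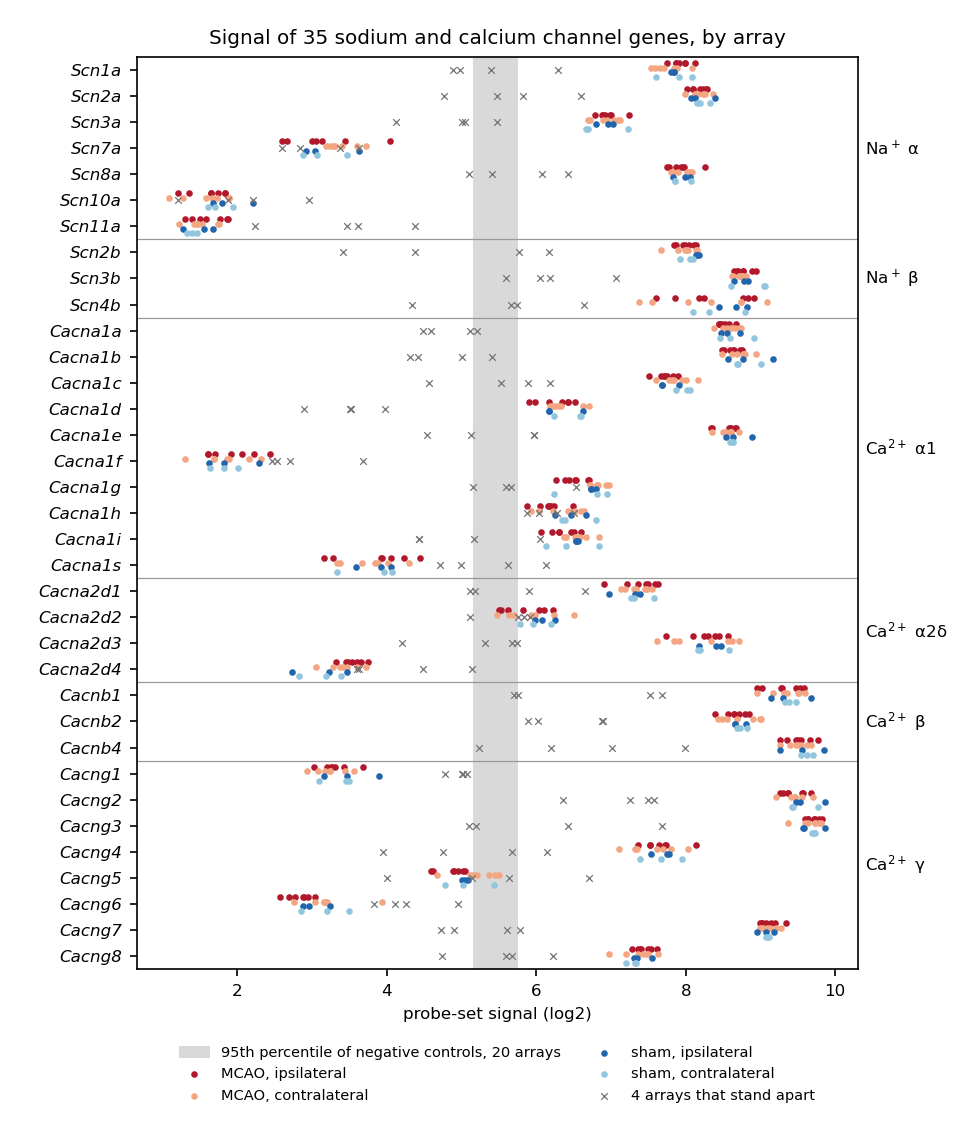
Signal of each of the 35 channel genes on every array (x axis, log2 probe-set signal), ordered by subunit class. Coloured points are the 20 arrays of the 4 groups, crosses are the 4 arrays that stand apart, and the grey band spans the 95th percentile of negative controls on the 20 arrays. In nearly all genes the coloured points of the 4 groups lie over each other, and the crosses of genes with a high signal lie far to the left. Signals of different probe sets are not comparable with each other.

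The first question was whether the ischaemic hemisphere differed from the other hemisphere of the same mouse. No channel gene did by the test used. In the 7 MCAO mice, 0 of 35 members passed an adjusted p of 0.05 (limma with mouse as a block, Benjamini-Hochberg over 22206 probe sets), against 0.135% of all probe sets, which is 30 (28 higher and 2 lower). The smallest adjusted p among members was 0.349. At an unadjusted p under 0.05 there were 4 members, all lower, against 7.1% of all probe sets in either direction and 3.92% that were lower. On all 24 arrays 0 members and 0.0856% of probe sets passed. The median ipsilateral minus contralateral difference of the members was 0.0037, with a range from -0.38 to 0.17 and 18 above 0, and the median over all genes was -0.0031. On all 24 arrays the difference changed sign for 10 of the 35 members, none of which passed the test on either set of arrays.

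The early response genes examined beside them did rise in the same hemispheres. Fos, a transcription factor subunit induced by calcium entry, ran from 8.08 to 9.13 with a median of 8.90 in the 7 ischaemic hemispheres and from 5.37 to 8.47 with a median of 6.47 in the opposite ones. It was higher in 7 of 7 mice, by 2.13 ± 0.23 (SE, n = 7 mice; limma adjusted p = 0.00237). Of 8 such genes, 7 passed (Fos, Fosb, Npas4, Egr4, Nr4a1, Atf3 and Arc), and Egr1 had 0.67 ± 0.12 (limma adjusted p = 0.0717). The intervals of the channel genes bounded their differences. The 95% confidence interval lay wholly within a 1.5-fold change in either direction for 33 of 35 members, all 25 that were above background throughout included. The same held for 92.6% of all probe sets. The exceptions were Scn7a and Cacng6, both below background on all arrays. With the 4 arrays that stand apart included, the interval stayed within 1.5-fold for 24 of 35 members, 18 of the 25 above background among them, and for 77.4% of all probe sets.

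**Figure D2:**
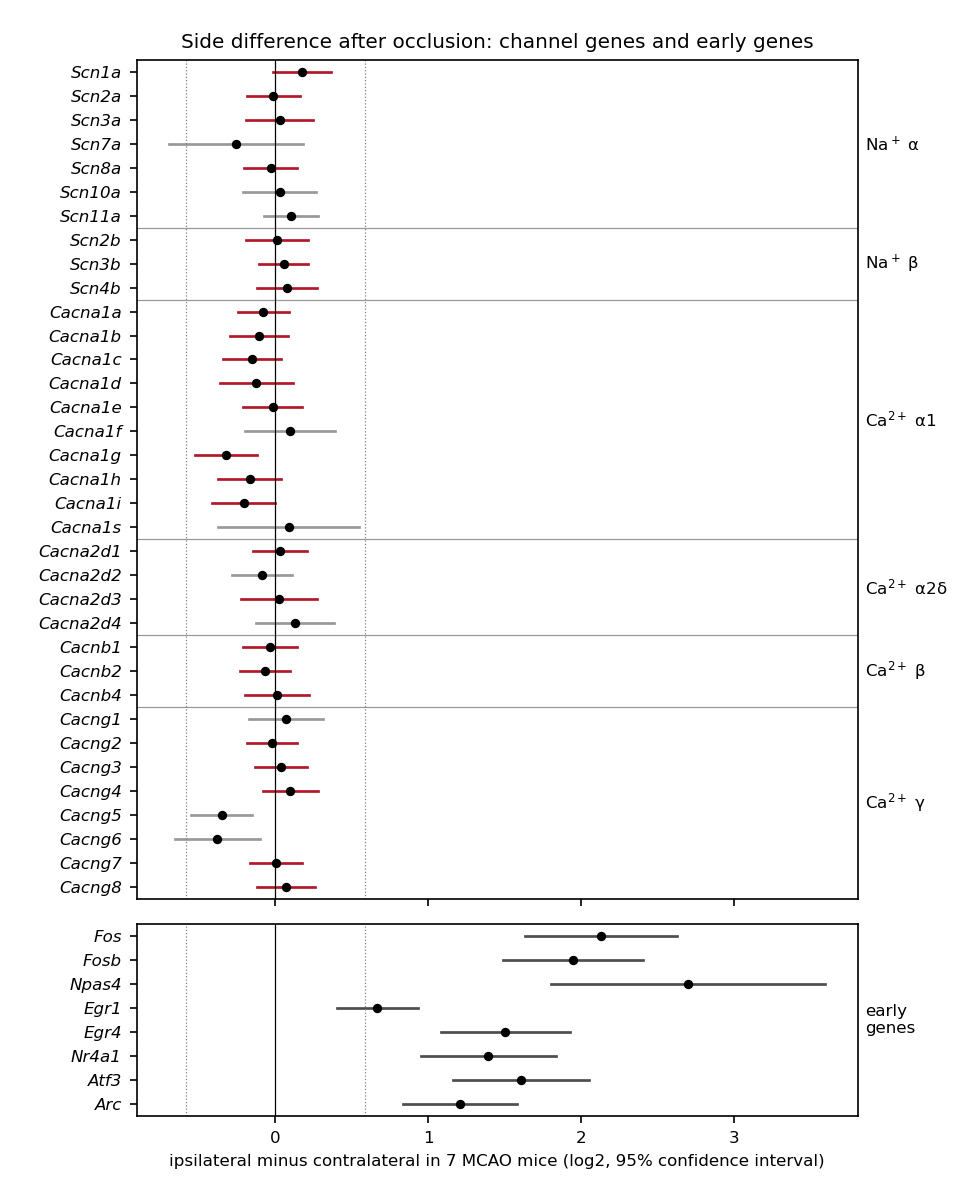
Ipsilateral minus contralateral difference in 7 MCAO mice (x axis, log2) for the 35 channel genes by subunit class and, in the lower panel, for 8 early response genes. Points are limma estimates and lines their 95% confidence intervals, red where the gene was above background on all 20 arrays and light grey where it was not. Dotted lines mark a 1.5-fold change in either direction. The channel genes lie between -0.38 and 0.17 and the early genes between 0.67 and 2.70.

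Among the sodium channel α subunits, Scn1a, the main α subunit of fast-spiking interneurons, had the smallest p. It ran from 7.75 to 8.12 in the ischaemic hemispheres (median 7.90) and from 7.54 to 8.08 opposite (median 7.70), so the sides overlapped. Its side difference was 0.17 ± 0.09 (SE, n = 7 mice; limma adjusted p = 0.761), above 0 in 7 of 7 MCAO mice, by as little as 0.02 and as much as 0.41, and above 0 in 1 of 3 sham mice. On all 24 arrays it was 0.32 ± 0.15 (limma adjusted p = 0.94). The other α subunits of central neurons lay close to 0. Scn2a, the α subunit of excitatory axons, had -0.015 ± 0.080 (SE), Scn8a, found at mature axon initial segments and nodes, -0.031 ± 0.080 (SE), and Scn3a, which is most abundant before birth, 0.029 ± 0.10 (SE). On all 24 arrays these turned to 0.12, 0.10 and -0.14. The β subunits had 0.0091 ± 0.093 (Scn2b), 0.05 ± 0.08 (Scn3b) and 0.08 ± 0.09 (Scn4b, the subunit linked to resurgent current), all SE.

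Among the calcium channel α1 genes 8 of 10 values were below 0, with a median of -0.12, while 17 of all 35 members were below 0. On all 24 arrays 7 of 10 were, with a median of -0.13. In sham mice 4 of 10 were below 0 and the median was 0.049. These 4 were Cacna1a, Cacna1c, Cacna1d and Cacna1h, from -0.22 to -0.047. Whether the class as a whole differed was not tested. The α1 genes with the smallest p between the sides in MCAO mice were the 3 T-type genes. T-type channels open near the resting potential and shape burst firing. Cacna1g, prominent in the thalamus, had 6.71, 6.69, 6.39, 6.44, 6.52, 6.54 and 6.26 in the ischaemic hemispheres of MCAO mice 1, 2, 4, 5, 6, 7 and 8. In the opposite hemispheres of the same mice it had 6.72 (mouse 1), 6.98, 6.82, 6.82, 6.94, 6.83 and 6.72 (mouse 8). The sides met at 6.71 and 6.72 without overlapping, both in mouse 1, which alone showed next to no difference. The side difference was -0.32 ± 0.09 (SE, n = 7 mice; limma adjusted p = 0.408), below 0 in 7 of 7 MCAO mice and in 2 of 3 sham mice. On all 24 arrays, where MCAO mouse 3 had 0.94, it was -0.16 ± 0.16 (limma adjusted p = 0.94).

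Cacna1i, a T-type subunit of thalamic reticular and other neurons, ran from 6.07 to 6.60 in the ischaemic hemispheres (median 6.31) and from 6.38 to 6.84 opposite (median 6.53). Its difference was -0.21 ± 0.10 (SE; limma adjusted p = 0.698), below 0 in 6 of 7 MCAO mice. Cacna1h, the third T-type gene, had a difference of -0.17 ± 0.10 (SE; limma adjusted p = 0.802), below 0 in 5 of 7. The L-type genes, which couple depolarisation to transcription, had -0.15 ± 0.09 (Cacna1c) and -0.12 ± 0.11 (Cacna1d). The presynaptic genes had -0.08 ± 0.08 (Cacna1a) and -0.11 ± 0.09 (Cacna1b), and Cacna1e, the R-type gene, -0.02 ± 0.09, all SE, which turned to 0.16 for Cacna1e on 24 arrays. None of these passed the test.

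Of the subunits that accompany the calcium pore, none passed the test. Cacna2d1 and Cacna2d3, of which the first binds gabapentin, had 0.03 ± 0.08 and 0.02 ± 0.12, Cacna2d2 had -0.09 ± 0.09, and Cacna2d4, below background on every array, 0.13 ± 0.12. The β subunits, which bind the pore inside the cell, had -0.04 ± 0.08 (Cacnb1), -0.07 ± 0.08 (Cacnb2) and 0.01 ± 0.10 (Cacnb4), all SE. Among the γ genes, Cacng2 (stargazin, which brings AMPA receptors to the synapse) had -0.02 ± 0.08, and the related Cacng3, Cacng4, Cacng7 and Cacng8 lay between 0.0037 and 0.10. On 24 arrays Cacnb1, Cacnb2, Cacng2, Cacna2d2 and Cacng8 turned to 0.20, 0.049, 0.12, 0.0050 and -0.019.

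The lowest p among all 35 belonged to a γ gene, Cacng5, a weaker AMPA receptor partner. It was above background in 0 of 7 ischaemic and 1 of 7 opposite hemispheres, so it gave no measured level on the ischaemic side. Its signal was 5.02, 4.90, 4.59, 4.62, 5.04, 4.96 and 4.89 in the ischaemic hemispheres of MCAO mice 1, 2, 4, 5, 6, 7 and 8, and 5.45, 5.12, 4.67, 5.16, 5.50, 5.21 and 5.37 opposite. The ranges of the sides overlapped, and each mouse had the lower value in the ischaemic hemisphere. The difference was -0.35 ± 0.09 (SE, n = 7 mice; limma adjusted p = 0.349), and on all 24 arrays -0.24 ± 0.24 (limma adjusted p = 0.94). Cacng6, whose signal was below background on all 20 arrays, had -0.38 ± 0.13 (SE; limma adjusted p = 0.509), so that neither side gave a measured level. Of the 35 members, Scn1a was higher and Cacna1g and Cacng5 were lower in all 7 mice, while 2.45% of all probe sets kept 1 direction in all 7.

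**Figure D3:**
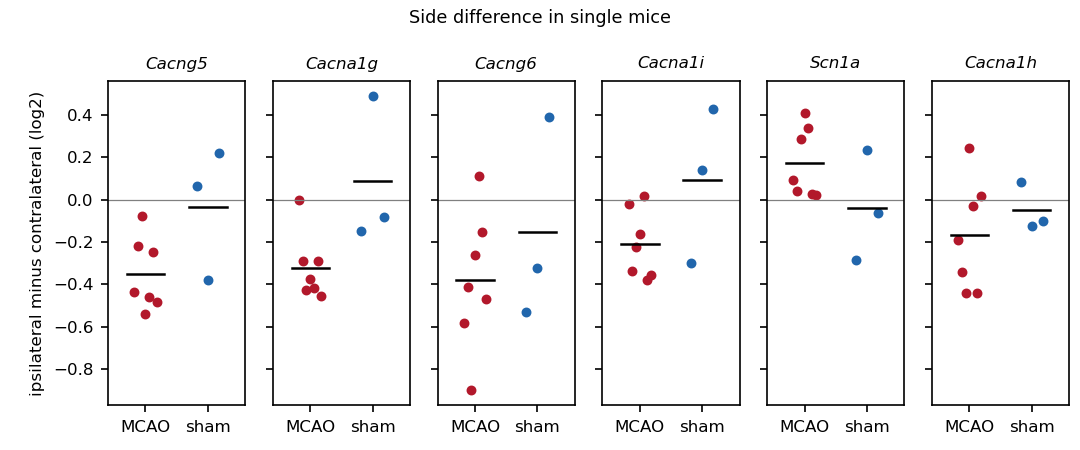
Ipsilateral minus contralateral difference (y axis, log2) in single mice for the 6 channel genes with the smallest p, with 7 MCAO mice in red, 3 sham mice in blue and a bar at each mean. The MCAO points of Cacng5 and Cacna1g lie at or below 0 and those of Scn1a above it, and the 3 sham mice lie on both sides of 0 in every panel.

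In the sham mice no member and no other probe set passed (0% of 22206). The spread behind the SE and intervals given here was shared with the MCAO mice. Unadjusted p fell under 0.05 for 0 members, against 5.49% of probe sets. The member with the smallest p was Scn4b at 0.25 ± 0.14 (SE, n = 3 mice; limma adjusted p = 0.942), followed by Cacna1c at -0.22 ± 0.13 and by Scn3b, Cacna2d1, Cacng1 and Cacna1d, which lay between -0.16 and 0.17. On 24 arrays Cacna1c and Cacna2d1 turned to 0.074 and 0.079. Intervals within 1.5-fold were found for 33 of 35 members and 63.5% of probe sets, and on 24 arrays for 13 of 35 members and 33.7%, where 20 members changed sign. Of 5 cerebellar markers, only Calb1 was above background on all 20 arrays, and it was higher on the operated side in 1 of 3 sham mice. The other 4 were below background on all 20 arrays and gave no measured level. Among them Pcp2 was 0.78 ± 0.15 higher on the operated side in sham mice (limma adjusted p = 0.432). Cbln1 was higher there in 3 of 3 sham mice, and Cbln3 and Gabra6 in 2 of 3. The part of these markers in the channel values was not tested.

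The interaction of side and surgery asks whether the side difference itself differed between MCAO and sham mice. No member passed, nor did any other probe set (0% called), and 1 member against 5.91% of probe sets had an unadjusted p under 0.05. That member was Cacna1g, with -0.41 ± 0.17 (SE, n = 7 and 3 mice; limma adjusted p = 0.791). Without sham mouse 3, whose own side difference was 0.49, the value was -0.21, and on all 24 arrays -0.10, where 0 members and 0% of probe sets passed as well. Cacng5 had -0.32 ± 0.17, Cacna1i -0.30 ± 0.17, Scn1a 0.21 ± 0.16, Scn3b 0.20 ± 0.14 and Cacna2d1 0.19 ± 0.15 (SE). On 24 arrays Cacng5 and Cacna1i turned to 0.45 and 0.063. The interaction was the least precise of the comparisons over all probe sets on 20 arrays: 29 of 35 members, and 44.2% of all probe sets, had an interval within 1.5-fold. On 24 arrays 3 members and 14.2% of probe sets had one, and 10 members changed sign.

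Between animals, the ischaemic hemispheres were set against the operated-side hemispheres of sham mice. Again 0 of 35 members passed, against 0.149% of probe sets (33), and on 24 arrays 0 against 0.0045%. Intervals within 1.5-fold were found for 29 of 35 members and 70.9% of probe sets, and on 24 arrays for 0 members and 5.65%, where 19 members changed sign. An unadjusted p under 0.05 was found in 1 member and in 7.48% of probe sets. That member, Cacna2d4 (0.40 ± 0.16; limma adjusted p = 0.595), was below background on every array. Cacna1h followed with 6.17 ± 0.18 (SD, n = 7) against 6.46 ± 0.21 (SD, n = 3), a difference of -0.30 ± 0.14 (SE; limma adjusted p = 0.677), and Cacna1g with -0.25 ± 0.13 (limma adjusted p = 0.694). Scn10a, Cacna2d2 and Cacna1b lay between -0.28 and -0.21. On 24 arrays Cacna1g and Cacna1b turned to 0.15 and 0.47.

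The MCAO and sham values did not overlap for 2 of 35 members on this side, as for 2.38% of all probe sets. Cacna1g lay between 6.26 and 6.71 in MCAO and had 6.80, 6.73 and 6.73 in sham mice 2, 3 and 4. Scn2b, a sodium β subunit, lay between 7.84 and 8.13 in MCAO and had 8.15, 8.14 and 8.18 in the sham mice. Its difference was -0.16 ± 0.11 (limma adjusted p = 0.797), which turned to 0.21 ± 0.49 on all 24 arrays (limma adjusted p = 0.968).

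The contralateral hemispheres of MCAO and sham mice likewise gave 0 members and 0% of probe sets called. Intervals lay within 1.5-fold for 32 of 35 members and 74.6% of probe sets, and on 24 arrays for 1 member and 4.26%, where 21 members changed sign. No member and 4.59% of probe sets had an unadjusted p under 0.05, and the groups overlapped for every member (1.38% of all probe sets did not). The 6 members with the smallest p were Cacna2d4, Scn7a, Scn3b, Cacna1g, Cacnb4 and Cacna1h, with differences from -0.19 to 0.28, all with a limma adjusted p of 1.00. On 24 arrays Cacna2d4, Scn3b and Cacnb4 turned to -0.086, 0.14 and 0.19, and without sham mouse 3 Cacna1g turned to -0.054. Of the 8 early genes, 7 lay higher and 1 lower in the contralateral hemispheres of MCAO than of sham mice. Their median difference was 0.76, with a range from -0.013 to 1.8. None passed, and 4 had an unadjusted p under 0.05 (limma). These between-animal comparisons share their mice with the within-mouse ones.

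The promoters of the channel genes were read beside those of the early genes, a list chosen with earlier results of these data known. Whether a motif bears on which genes rose was not tested. RefSeq (GRCm38.p6) sequences of 250 bases before to 50 after a gene's start were at hand for 27 of the 35 members and for 6 of the 8 early genes. The core of the cyclic AMP response element, TGACG on either strand, occurred in 6 of 6 early genes (Fos, Fosb, Npas4, Egr4, Nr4a1 and Atf3), in 6 of 27 members (22.2%: Cacna1b, Cacna1c, Cacna1i, Cacna2d1, Cacnb2 and Scn10a) and in 23% of all genes in the table. Its palindrome TGACGTCA, which holds that core, was found in 0 members, 0 early genes and 2.03% of all genes. The AP-1 site TGAGTCA on either strand was found in 1 member (Cacng5), 0 early genes and 5.95% of all genes.

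The 250 bases before the start are shown for Fos, for Cacna1i as a channel gene that shares the core letters, for Cacng5 as the gene with the lowest p and the AP-1 letters, and for Scn4b, the most variable member described further on. Capitals mark a motif on either strand.
Fos, chr12:85473640-85473889, plus strand: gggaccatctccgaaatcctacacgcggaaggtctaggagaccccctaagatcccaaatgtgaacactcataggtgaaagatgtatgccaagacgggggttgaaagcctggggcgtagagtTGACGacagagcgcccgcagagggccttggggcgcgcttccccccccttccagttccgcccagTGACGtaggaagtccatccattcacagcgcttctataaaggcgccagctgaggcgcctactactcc
Cacna1i, chr15:80286988-80287237, plus strand: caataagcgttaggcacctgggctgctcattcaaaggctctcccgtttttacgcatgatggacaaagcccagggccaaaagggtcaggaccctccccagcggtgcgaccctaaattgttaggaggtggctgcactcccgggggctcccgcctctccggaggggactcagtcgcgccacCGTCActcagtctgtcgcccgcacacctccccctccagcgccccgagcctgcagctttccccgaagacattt
Cacng5, chr11:107915056-107915305, minus strand: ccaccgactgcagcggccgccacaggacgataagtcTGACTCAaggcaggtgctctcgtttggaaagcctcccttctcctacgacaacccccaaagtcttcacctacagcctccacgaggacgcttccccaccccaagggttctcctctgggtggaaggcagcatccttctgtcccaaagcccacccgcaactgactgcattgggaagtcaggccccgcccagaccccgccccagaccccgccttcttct
Scn4b, chr9:45138374-45138623, plus strand: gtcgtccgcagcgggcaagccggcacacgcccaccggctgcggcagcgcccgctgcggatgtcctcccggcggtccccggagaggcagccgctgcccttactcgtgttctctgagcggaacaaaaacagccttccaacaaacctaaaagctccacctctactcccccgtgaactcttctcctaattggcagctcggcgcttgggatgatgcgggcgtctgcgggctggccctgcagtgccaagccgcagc
The core letters of Fos begin 129 and 66 bases before the start and those of Cacna1i, on the opposite strand, 72 bases before it. The AP-1 letters of Cacng5 begin 214 bases before the first of its 2 listed starts. The Scn4b window held none of the 3 motifs. A match is a description of the letters only.

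Proteins that bind these channels were followed from lists of their genes. Over all probe sets 0.135% passed between the sides of MCAO mice, 0.149% between ipsilateral hemispheres and 0% in the other comparisons. A count of 0 in a short list is therefore no result about its genes. Sodium channel partners, such as the intracellular Fgf11 to Fgf14 factors and the anchors Ank2 and Ank3, gave 0 of 16 measured genes past the threshold in any of the 5 comparisons. Their values ran from -0.14 to 0.14 between the sides in MCAO mice. The smallest p there belonged to Fgf12 (0.14 ± 0.09; limma adjusted p = 0.843). Calcium channel partners gave 0 of 19 in each comparison, with 5 at an unadjusted p under 0.05 between the sides in MCAO mice, where 7.1% of all probe sets had one. They were led by Rem2, an RGK GTPase that binds β subunits and restrains calcium channels. Rem2 ran from 5.13 to 7.10 (median 6.08) in the ischaemic hemispheres and from 4.80 to 6.33 (median 5.55) opposite. It lay near the background, above it in 6 of 7 ischaemic and 5 of 7 opposite hemispheres. In sham mice it was above background in 1 of 3 ipsilateral and 2 of 3 contralateral hemispheres. The ranges overlapped, and 7 of 7 mice were higher on the ischaemic side, by 0.58 ± 0.14 (SE; limma adjusted p = 0.238). Stac3, an adaptor of the muscle calcium channel, had -0.33 ± 0.10 (SE; limma adjusted p = 0.41).

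The related Gem and Rrad had the smallest p of that list between the ischaemic and the sham operated-side hemispheres. Gem lay between 4.47 and 5.72 in 7 MCAO mice and had 3.60, 3.63 and 4.64 in the sham mice, so the groups overlapped through sham mouse 4. The difference was 1.07 ± 0.29 (SE; limma adjusted p = 0.319), and 2 of the 7 ischaemic hemispheres and 0 of 3 sham ones were above background. Rrad, below background on all 20 arrays, had 0.99 ± 0.31 (SE; limma adjusted p = 0.433). Of the genes for other calcium entry, stores and extrusion, 0 of 19 passed in any comparison, against 0% to 0.149% of all probe sets. Their values ran from -0.11 to 0.17 between the sides in MCAO mice. The 12 AMPA receptor subunits and their other auxiliaries, the partners of the neuronal γ subunits, gave 0 as well, with Shisa6 at -0.27 ± 0.09 (limma adjusted p = 0.522) and Shisa7 at -0.19 ± 0.08 (limma adjusted p = 0.671).

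**Figure D4:**
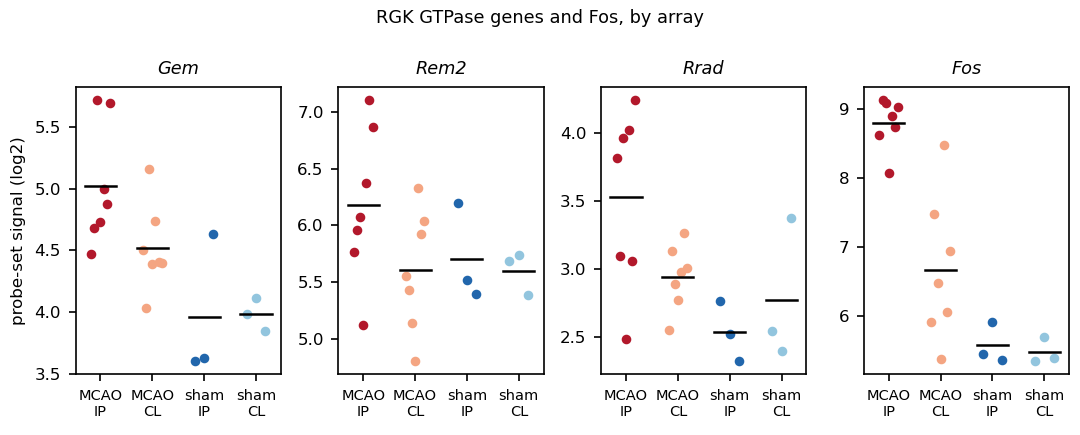
Probe-set signal (y axis, log2) of Gem, Rem2, Rrad and, for comparison, Fos on each of the 20 arrays, by group, with a bar at each mean. The scales differ between panels. The Fos points of the ischaemic hemispheres (MCAO IP, 8.08 to 9.13) lie above all sham points, whereas the RGK genes overlap between groups, and Rrad stays under the background of the arrays.

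Some channel genes varied widely from mouse to mouse. Among the 25 members above background, the SD of the 10 mouse means (average of both hemispheres) was highest for Scn4b at 0.50, followed by Cacna2d3 at 0.27 and Cacng4 at 0.24. Scn4b is abundant in medium spiny neurons of the striatum. Its mouse means were 8.29, 7.58, 8.10, 7.61, 9.00, 8.79 and 8.76 in MCAO mice 1, 2, 4, 5, 6, 7 and 8, and 8.49, 8.81 and 8.27 in sham mice 2, 3 and 4. MCAO mice 2 and 5 were low and mouse 6 high, a 2.69-fold range, and the sham mice fell inside the MCAO range. Mouse means of Cacna2d3 ran from 7.79 to 8.59 and those of Cacng4 from 7.32 to 8.09.

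These levels were set against 7 measured markers of striatal medium spiny neurons (Drd1, Drd2, Ppp1r1b, Rgs9, Penk, Tac1 and Gpr6), whose average ran from 7.57 in MCAO mouse 2 to 9.25 in mouse 6. Over the 10 mice the Pearson correlation with this average was 0.99 for Scn4b (permutation p = 2e-05, the smallest that 100000 permutations can give; adjusted 0.00012; Spearman 0.95, permutation p = 8e-05). Without MCAO mice 2 and 5, which lay farthest from the median of the markers, it was 0.97, and within the 7 MCAO mice 0.99 (exact permutation p = 0.00198). Of 19565 probe sets with a gene name outside the marker list, 0.0102% correlated as highly. This share and the 2 that follow count the gene's own probe set. Cacna2d3 had 0.91 (permutation p = 0.00046, adjusted 0.00138; Spearman 0.81, permutation p = 0.00698), 0.77 without those mice and 0.90 within MCAO (exact permutation p = 0.00913), with 0.358% of probe sets as high. Cacng4 had 0.79 (permutation p = 0.0043, adjusted 0.00774; Spearman 0.87, permutation p = 0.00204), 0.72 without those mice and 0.78 within MCAO (exact permutation p = 0.0437), with 1.52% as high. All tests were two-sided, and p-values were adjusted over 6 relations, which were chosen after the values had been seen.

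The remaining relations used the ipsilateral minus contralateral differences of the same mice, which leave out what both hemispheres share. For Scn4b the correlation with the side difference of the markers was 0.79 (permutation p = 0.00516, adjusted 0.00774; Spearman 0.72, permutation p = 0.0232) and 0.79 again without MCAO mouse 5 and sham mouse 3, the farthest from the median. Within the 7 MCAO mice it was 0.87 (exact permutation p = 0.0611). MCAO mouse 5 had the greatest side difference in both, 0.48 for Scn4b and 0.87 for the markers. For Cacna2d3 and Cacng4 the values of 0.75 and 0.79 (permutation p = 0.0369 and 0.015) fell to 0.25 and 0.13 without those mice, so the relation rested on them. What sets the level of the striatal markers in a hemisphere was not tested.

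**Figure D5:**
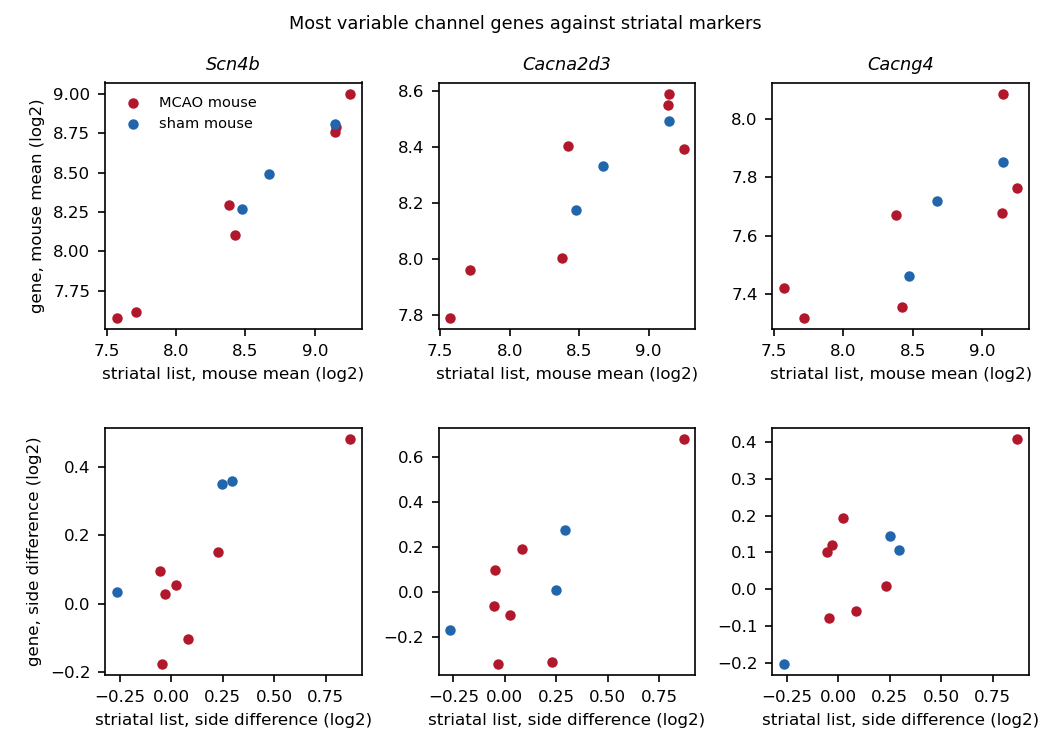
Scn4b, Cacna2d3 and Cacng4 (y axes, log2) against the average of 7 striatal markers (x axes, log2) in 10 mice, 7 MCAO in red and 3 sham in blue. The upper row gives the mean of both hemispheres of a mouse and the lower row the ipsilateral minus contralateral difference. In the upper row the mice line up from MCAO mouse 2 (7.57 on the x axis) to mouse 6 (9.25), most closely for Scn4b, and in the lower row MCAO mouse 5 lies apart at 0.87.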

How the data were processed

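Per the labels' protocols, RNA of 24 hemispheres was extracted by mirVana Paris and labelled by GeneChip WT Plus reagents. The submitters' processing notes name Affymetrix Expression Console for the log2 signals that the authors deposited. The log2 scale is inferred from the values, and version, normalization and build were not given in the sources used here. Of 29129 rows, 6923 array controls were left out of tests and 22206 were tested without a filter. Differences were tested with limma 3.58.1 in R 4.3.3 (lmFit, eBayes, two-sided, Benjamini-Hochberg over all probe sets, threshold 0.05), with mouse as a fixed block within mice and no block between mice (10 arrays of one side). The hemispheres of a mouse are paired by the labels, and their deviations correlated at 0.11 to 0.31 against a median of -0.04 for different mice. MCAO mouse 3 and sham mouse 1 (4 arrays) were left out for their profiles, with all 24 arrays as an alternative. Members, lists, motifs and the background measure were chosen with earlier results of these data known. Named members are the 6 with the smallest p in a comparison. All 35 symbols matched RefSeq (GRCm38.p6), and promoter sequences are RefSeq's. Where a gene had several probe sets, the one with the highest mean was kept. The limma fits were run on simulated data with known changes, and the share of small changes that they miss is not given here. Permutations used scipy 1.17.1. The number of arrays limits the precision.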

Additional observations from a re-analysis of the deposited data

Results flagged for a closer look

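Each channel gene was searched for a single mouse far from the rest of its group of 7 MCAO mice, in the level of either hemisphere and in the side difference. Of 105 sets of values, 4 had such a mouse, and chance flags about 1 in 20 sets.

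In Cacna1g, a T-type calcium channel gene, MCAO mouse 1 had a side difference of -0.0021, while the other mice lay between -0.46 and -0.29. In Cacnb4, a calcium channel β subunit gene, MCAO mouse 5 had 0.50, while the others lay between -0.15 and 0.11. Both genes were above background on all 20 arrays. In Scn11a, MCAO mouse 1 stood at a side difference of 0.44, with the others from -0.065 to 0.14. In the contralateral level of Cacng6, MCAO mouse 4 had 3.94 against 2.76 to 3.21. Scn11a and Cacng6 were below background throughout. No member moved one way in every MCAO mouse and the opposite way in every sham mouse.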

How the results depend on the processing

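No channel gene passed the threshold in any of the 5 comparisons under any alternative run, and the smallest adjusted p of a named member was 0.087 (Cacng5 without dim probe sets, limma). The alternatives were all 24 arrays, other treatments of the mouse block, eBayes with trend and robust settings, array weights, quantile normalization, median centring, removal of dim probe sets, the mean of a gene's probe sets, fits on fewer or more groups, and leaving out each mouse. Of 576 such values of named members 565 kept their direction and 11 did not. In many of these runs the direction could not change, so the count overstates how much was tried. Each member had 1 probe set, so the mean of a gene's probe sets repeated the main value. Trend and robust settings and removal of dim probe sets alter p and not the difference. Within mice, other treatments of the block and leaving out a mouse of the other surgery gave the same side difference. Those on 24 arrays were Cacna1c (0.074) and Cacna2d1 (0.079) in sham mice, Cacng5 (0.45) and Cacna1i (0.063) in the interaction, Cacna1g (0.15) and Cacna1b (0.47) between ipsilateral hemispheres, and Cacna2d4 (-0.086), Scn3b (0.14) and Cacnb4 (0.19) between contralateral ones. There, Cacna1h turned to 0.038 with a block on the title number, and Cacna1g ran from -0.054 (without sham mouse 3) to 0.30 as each mouse was left out. The cause was not tested.

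The 30 probe sets called between the sides of MCAO mice became 19 on 24 arrays, 84 with trend and robust settings, 66 without dim probe sets, 19 with MCAO mice alone, and 18 to 27 as each mouse was left out. The 33 between ipsilateral hemispheres became 1 on 24 arrays, 50 with trend and robust settings, 51 with all groups in 1 fit, and 24 to 46 with each mouse left out. The interaction gave 5 with trend and robust settings, 2 without dim probe sets and 0 to 8 with each mouse left out (8 without MCAO mouse 6), sham mice 0 to 1, and the contralateral comparison 1 with trend and robust settings and 1 without dim probe sets.

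The median member difference on 24 arrays was 0.092 between the sides in MCAO mice, -0.096 in the interaction, 0.15 between ipsilateral and 0.19 between contralateral hemispheres. In sham mice it was -0.024 without dim probe sets and -0.026 to 0.038 with each mouse left out. Without the mouse block, 29 probe sets and 0 members were called between the sides in MCAO mice. Title numbers shared by MCAO and sham mice name different animals. With a block on them, 29 probe sets and 0 members were called between ipsilateral hemispheres, and the median member difference was -0.17. Depth has no equivalent on arrays: 8 members without a signal above background gave no measured level.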
